A study of Mus musculus with 26 samples.

Results

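The 38 genes described here encode the proteins of the basement membrane and of the matrix around testis cords, with their receptors. They were taken by name, as a fixed list, from the 57186 genes counted in the deletion libraries and the 31053 genes counted in the Meis1 libraries. The list holds 6 type IV collagen chains, 10 laminin chains, 2 nidogens, the heparan sulfate proteoglycans Hspg2 and Agrn, the multiplexins Col15a1 and Col18a1, and 3 type IX collagen chains. It also holds Fn1, Sparc, the receptors Dag1, Itga1, Itga6, Itga8, Itgb1 and Itgb4, the integrin ligand Npnt, Egflam, and the Fraser complex genes Fras1, Frem1 and Frem2. All 38 passed the filter on low counts in both fits.

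Polyadenylated RNA was sequenced from XY mouse gonads at E13.5 (E, embryonic day), dissected away from the mesonephros, the embryonic kidney that lies beside the gonad. The groups were wild type (WT, 3 samples), 4 Fgf9 deletion genotypes, Fgf9 Δ306 (3), Fgf9 Δ225 (6), Fgf9 Δ104 (4) and Fgf9 Δ93 (6), and a Meis1 KO (4), 26 samples in all. The extent of each deletion, whether the embryos carried it on both alleles, the strain and the type of Meis1 knockout are not given in the sources used here. Samples added after the first WT and Δ306 set are labelled as biological replicates, and no label says whether the WT and Δ306 samples came from separate embryos, so their spread may be partly technical. The Δ225, Δ104, Δ93 and Meis1 KO samples were all added later, with no WT sample among them. Their differences from WT therefore cannot be told apart from differences between the sets. The same holds for Δ225 against Δ306. Fgf9 encodes a growth factor that supporting cells of the XY gonad need to follow the testis path, and Meis1 encodes a homeobox transcription factor.

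A basement membrane is a thin sheet of matrix laid down where epithelial cells meet stroma. Laminin trimers of an α, a β and a γ chain form a first network on the cell surface through integrins and dystroglycan. Trimers of type IV collagen form a second network, and nidogens and perlecan (Hspg2) link both. In the fetal testis, Sertoli cells gather around germ cells into cords, and Sertoli cells and the peritubular cells outside them together build the sheet that surrounds each cord. The type IV collagen chains are encoded in head-to-head gene pairs that are transcribed away from each other from a shared stretch of DNA.

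Both genes of the Col4a1 and Col4a3 pairs were lower in the same deletions, so the sequences available at their start sites are shown. No promoter window was available for Col4a3. The window of Col4a5, a gene of the other pair, is shown beside them. Col4a1 (chromosome 8, 11198423 to 11312826, minus strand) and Col4a2 (chromosome 8, 11312805 to 11449287, plus strand) have annotated start sites 21 bases apart. Col4a3 (chromosome 1, 82586921 to 82722059, plus strand) and Col4a4 (chromosome 1, 82448423 to 82586849, minus strand) start 72 bases apart. Col4a5 (chromosome X, 141475385 to 141689234, plus strand) and Col4a6 (chromosome X, 141165403 to 141474076, minus strand) start 1309 bases apart. These positions are from GENCODE M21 on GRCm38, the assembly called mm10 in the submitters' processing notes. The windows are RefSeq promoters on GRCm38.p6, from 250 bases before to 50 after a start site, each written 5′ to 3′ on the gene's own strand. Capitals mark GGGCGG, or its complement CCGCCC, a GC box bound by SP and KLF factors.
Col4a1, chr8:11312777-11313076, minus strand: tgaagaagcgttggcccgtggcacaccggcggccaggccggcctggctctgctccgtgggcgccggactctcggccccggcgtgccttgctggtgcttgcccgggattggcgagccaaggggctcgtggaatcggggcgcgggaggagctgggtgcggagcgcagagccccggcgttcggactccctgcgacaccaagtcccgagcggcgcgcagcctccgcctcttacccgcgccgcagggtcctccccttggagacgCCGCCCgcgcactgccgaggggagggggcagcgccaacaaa
Col4a2, chr8:11312555-11312854, plus strand: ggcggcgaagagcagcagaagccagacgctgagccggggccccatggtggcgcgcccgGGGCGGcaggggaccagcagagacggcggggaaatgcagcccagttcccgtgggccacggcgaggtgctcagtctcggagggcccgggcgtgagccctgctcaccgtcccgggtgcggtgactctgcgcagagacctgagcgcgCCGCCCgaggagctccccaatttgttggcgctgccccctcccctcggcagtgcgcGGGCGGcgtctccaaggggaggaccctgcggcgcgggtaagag
Col4a4, chr1:82586800-82587099, minus strand: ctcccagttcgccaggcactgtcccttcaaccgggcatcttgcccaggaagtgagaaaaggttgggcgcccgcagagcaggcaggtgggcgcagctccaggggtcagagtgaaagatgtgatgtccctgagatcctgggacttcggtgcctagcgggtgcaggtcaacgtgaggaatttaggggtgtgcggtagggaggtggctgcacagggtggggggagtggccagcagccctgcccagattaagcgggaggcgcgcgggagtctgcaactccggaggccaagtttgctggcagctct
Col4a5, chrX:141475169-141475468, plus strand: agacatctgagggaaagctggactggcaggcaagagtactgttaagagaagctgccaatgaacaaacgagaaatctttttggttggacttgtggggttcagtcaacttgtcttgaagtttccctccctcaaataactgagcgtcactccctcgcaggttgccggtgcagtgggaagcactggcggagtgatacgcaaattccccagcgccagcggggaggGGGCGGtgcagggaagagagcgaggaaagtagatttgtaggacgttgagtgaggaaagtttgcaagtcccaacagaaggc
The Col4a1 and Col4a2 windows overlap and run in opposite directions, so each reads part of the other gene's start. Of the 38 genes, 26 matched the promoter table, with 34 windows. Where windows of the same gene overlap, as at Egflam and Dag1, the same site was counted in each, so the windows are not independent. The GC box lay in 19 of those 34 windows (55.9%), against 35.7% of all 32851 windows of this length. It was present at Col4a1, Col4a2, Col4a5 and Col4a6, and not found in the Col4a4 window. The box in the Col4a1 window is the same site as 1 of the 3 in the Col4a2 window, read on the other strand. The search covered 5 other motifs on both strands. They were the SOX-type motifs AACAAT (1 of 34 windows, 2.94%, against 10.7% of all windows) and ACAAAG (5 of 34, 14.7%, against 18.7%), which share the letters ACAA, the NR5A1-type AAGGTCA (2 of 34, 5.88%, against 4.72%), the GATA-type AGATAA (0 of 34, against 11.2%) and the FOX-type GTAAACA (0 of 34, against 3.65%). None of these 5 was in the 4 windows shown.

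Library totals were 11.6 to 53.4 M counts in the deletion table and 35.5 to 51.7 M in the Meis1 table. Values are counts per M counts (CPM), on library sizes scaled by edgeR's TMM method. Levels of different genes are compared only as CPM per kilobase of annotated exon (CPM per kb). A gene is called where edgeR's quasi-likelihood test, adjusted by Benjamini-Hochberg over all genes of that comparison, gave a p under 0.05. Fgf9 was at 9.85, 9.21 and 9.55 CPM in the WT libraries and at 2.94, 2.17 and 2.33 in Δ306 (log2 fold change −1.94, SE 0.45, adjusted p = 0.0148). It was at 2.30 to 4.75 (median 2.85) in Δ93 (log2 fold change −1.63, SE 0.36, adjusted p = 0.00532), and at 3.69 to 16.5 (median 5.43) in Δ225 and 2.72, 5.16, 6.98 and 4.52 in Δ104, where it was not called. Meis1 was below 1 CPM in all 4 Meis1 KO libraries and at 109, 62.1 and 64.2 in WT (log2 fold change −7.49, SE 0.35, adjusted p = 0.000179). In 4 libraries labelled XY (Δ306 replicate 3, Δ225 replicate 4 and Δ93 replicates 4 and 5) the 4 Y-linked genes Ddx3y, Uty, Kdm5d and Eif2s3y summed to less than 1 CPM (0.0265 to 0.2), against 31.2 to 77.2 in WT. These 4 are called the low-Y libraries below. In them Xist was at 0.671, 0.177, 6.42 and 0.226 CPM, in that order, against 0.0583 to 0.185 in WT. The 6.42 of Δ93 replicate 4 was the highest Xist value of all 22 libraries, where the lowest was 0.0491. It was followed by 3.12 in Δ225 replicate 2. The Y-linked sum was below the WT range in every other deletion library too, at 1.32 to 20.5 CPM, except Δ104 replicate 4 (36.2). All 4 Y-linked genes were called lower in Δ93. In the Meis1 table the sum was 3.67 to 15.8 CPM in Meis1 KO and 33.3 to 81.6 in WT, and Uty was called lower. The part of this difference in the matrix results was not tested beyond leaving out the low-Y libraries. WT replicate 1 had the germ cell gene Ddx4 at 4.27 CPM against 81.3 and 139 in the other WT libraries, and its kidney duct gene Cdh16 stood at 13.4 CPM. In Δ225 replicate 3 Cdh16 was at 26.3 CPM. Cdh16 is 1 of 10 mesonephric duct and tubule markers. Their sum was 45.7 CPM in WT replicate 1, between the 37.97 and 56.6 of WT replicates 2 and 3. It was 81.5 in Δ225 replicate 3 and 46.6 to 54.6 in the other Δ225 libraries, with Cdh16 part of each sum. In Δ306 the sum was 42.6 to 75.5, in Δ93 48.9 to 67.8 and in Δ104 27.8 to 58.4.

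Most of the matrix genes that differed from WT were lower, in Δ306 and in Δ93. In Δ306, 14 of 38 were called lower and none higher. In Δ93, 17 were called lower and 1, Itga6, higher. Among all 22941 genes tested, 3.46% were called lower and 2.96% higher in Δ306, and 6.84% lower and 7.23% higher in Δ93. The median log2 fold change of the 38 was −0.74 in Δ306 and −0.65 in Δ93, against 0.08 and 0.06 over all genes. In Δ225 and in Δ104 none was called in either direction. The shares of all genes called there were 0.0785% lower and 0.131% higher in Δ225, and 0% lower and 0.061% higher in Δ104. At an unadjusted p under 0.05, 4 members (10.5%) passed in Δ225 and 10 (26.3%) in Δ104, against 16.1% and 15.7% of all genes. DESeq2 called 0 members in Δ225 and 3 in Δ104, which were Col4a1, Col4a2 and Sparc. In Meis1 KO, 4 members were called lower and none higher, against 0.53% and 1.27% of 16791 genes. The 4 deletions share the same WT libraries, so their values are set side by side and not counted as separate support. Without Δ306 replicate 3, 6 members were called in Δ306, and without WT replicate 1, 11 in Δ93. No share of all genes called is given for these fits or for DESeq2.

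Leaving out the 4 low-Y libraries left 5 members called in Δ306, all lower (Col4a1, Col4a2, Lamb1, Nid1 and Frem1), against 0.251% of all genes lower. In Δ93 it left 11, all lower, against 3.81% of all genes lower. The Δ93 calls lost were those of Lama3, Lama4, Lamb1, Lamc3, Col18a1, Fn1 and Itga6. In Δ225 none was called without them either. Signs of RNA makeup also differed between WT and the deletions. The mitochondrial transcript mt-Nd5 was at 653, 362 and 711 CPM in WT, 1182, 1606 and 1326 in Δ306, 1336 to 1943 (median 1689) in Δ93, 2179, 1899, 2469.7 and 1320.4 in Δ104 and 1829 to 13617 (median 1932) in Δ225, above every WT library in all 19. The highest of these was Δ225 replicate 1, which was also the smallest library. In Meis1 KO mt-Nd5 was at 865, 644, 692 and 664 and in WT of the same table at 745, 409 and 798, with overlap. Summed erythroid markers (8 genes) were 13280.3 to 16364 CPM in WT, 11752 to 22489 in Δ306, 5265 to 58339 in Δ93, 15480.1 to 34087 in Δ104 and 3465 to 21059.6 in Δ225, and were highest in Δ93 replicates 1 and 4. In the Meis1 table the erythroid sums were 2897 to 4101 CPM in Meis1 KO and 4291 to 5558 in WT, with no overlap. Of the 8 genes, 2 were called lower in Meis1 KO, against 0.53% of all genes. They were Alas2 (log2 fold change −1.03, adjusted p = 0.034) and Hba-a1 (log2 fold change −0.997, adjusted p = 0.0352). No erythroid marker was called against WT in any deletion. The part of mt-Nd5 or of the erythroid markers in the matrix results was not tested.

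**Figure D1:**
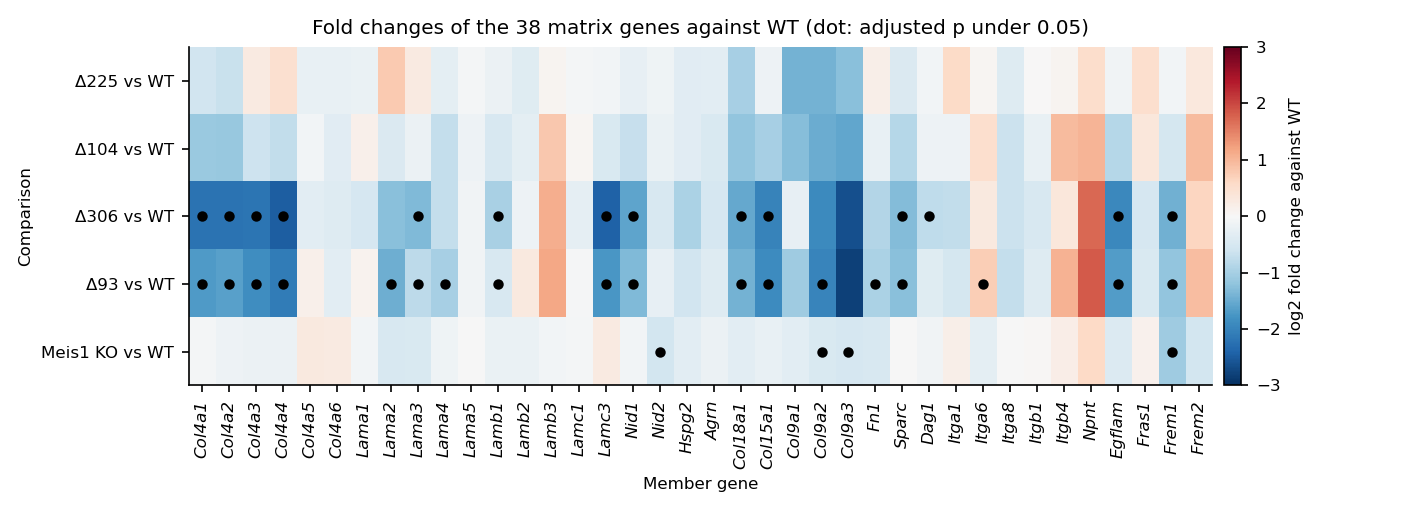
Log2 fold change against WT (colour, blue lower and red higher) for each of the 38 genes (columns) in each genotype (rows), with a dot where the adjusted p was under 0.05. Δ306 has 14 dots and Δ93 has 18, nearly all on blue cells, Δ225 and Δ104 have none, and Meis1 KO has 4.

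Type IV collagen, the network-forming collagen of basement membranes, included 4 genes called lower in both Δ306 and Δ93, those of 2 of the 3 gene pairs. Col4a1, whose protein with that of Col4a2 forms the most widespread type IV trimer, was at 2860.4, 2618 and 2316 CPM in WT. It was at 668, 501 and 516 in Δ306 and 577 to 1129 (median 811) in Δ93. Every Δ306 and Δ93 library lay below every WT library. Col4a1 was 4.62-fold lower in Δ306 (log2 fold change −2.21, SE 0.35, adjusted p = 0.00229) and 3.24-fold lower in Δ93 (log2 fold change −1.70, SE 0.28, adjusted p = 0.000992). Its partner Col4a2 was at 1478, 1372 and 1247 CPM in WT, 359, 251 and 268 in Δ306 and 309.8 to 579.7 (median 451) in Δ93. It was lower by nearly the same factor in Δ306 (log2 fold change −2.22, SE 0.33, adjusted p = 0.0018) and in Δ93 (log2 fold change −1.63, SE 0.27, adjusted p = 0.000975). Across the 22 libraries Col4a1 spanned 5.71-fold in CPM per kb, while the ratio of Col4a1 to Col4a2 stayed between 1.42 and 1.83. The ratios of the less abundant pairs varied more, from 2.21 to 7.20 for Col4a4 to Col4a3 and from 3.95 to 8.11 for Col4a5 to Col4a6. A transcribed overlap of 22 exonic bases joins the 2 genes on opposite strands, so a few reads may have been counted for either.

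Col4a3 and Col4a4 encode chains that join Col4a5 in the trimer of mature kidney filter membranes, and here they were far less abundant. Per kb of exon, mean WT levels were 348 for Col4a1, 206 for Col4a2, 17.3 for Col4a5, 3.66 for Col4a6, 2.59 for Col4a4 and 0.535 for Col4a3 (CPM per kb, n = 3). Col4a4 was at 27.9, 22.5 and 32.0 CPM in WT, 5.66, 5.18 and 4.10 in Δ306 and 4.32 to 10.4 (median 5.94) in Δ93, with no overlap. It was called lower in Δ306 (log2 fold change −2.46, SE 0.50, adjusted p = 0.00831) and Δ93 (log2 fold change −2.09, SE 0.39, adjusted p = 0.00216). Col4a3, at 5.38, 4.55 and 6.07 CPM in WT, was at 1.45, 1.37 and 0.671 in Δ306 and 1.00 to 2.22 (median 1.303) in Δ93. It too was called lower in both (log2 fold change −2.19, SE 0.43, adjusted p = 0.00685 in Δ306, log2 fold change −1.87, SE 0.34, adjusted p = 0.00163 in Δ93). In Δ306 both calls were lost without replicate 3, with adjusted p at most 0.0687 for Col4a3 and 0.0721 for Col4a4 over all alternatives. Col4a3 shares 563 exonic bases with the antisense gene C430014B12Rik, and the strand setting of the counting is not given, so its counts may include antisense reads.

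Neither gene of the X-linked pair was called. Col4a5 was at 143, 111 and 96.3 CPM in WT, 109, 74.5 and 98.1 in Δ306 and 86.4 to 178 (median 122) in Δ93, and the groups overlapped. Its log2 fold change was −0.31 (SE 0.29) in Δ306 and 0.14 (SE 0.25) in Δ93. Col4a6, whose product joins that of Col4a5 in smooth muscle and other membranes, gave −0.40 (SE 0.42) and −0.31 (SE 0.35). As a share of the summed CPM per kb of the 6 genes, Col4a5 was 2.76 to 3.34% in WT, 9.37 to 11.4% in Δ306 and 6.23 to 12.2% in Δ93. That share was 3.21 to 5.32% in Δ225 and 3.73 to 12.2% in Δ104. No test was run on the shares.

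**Figure D2:**
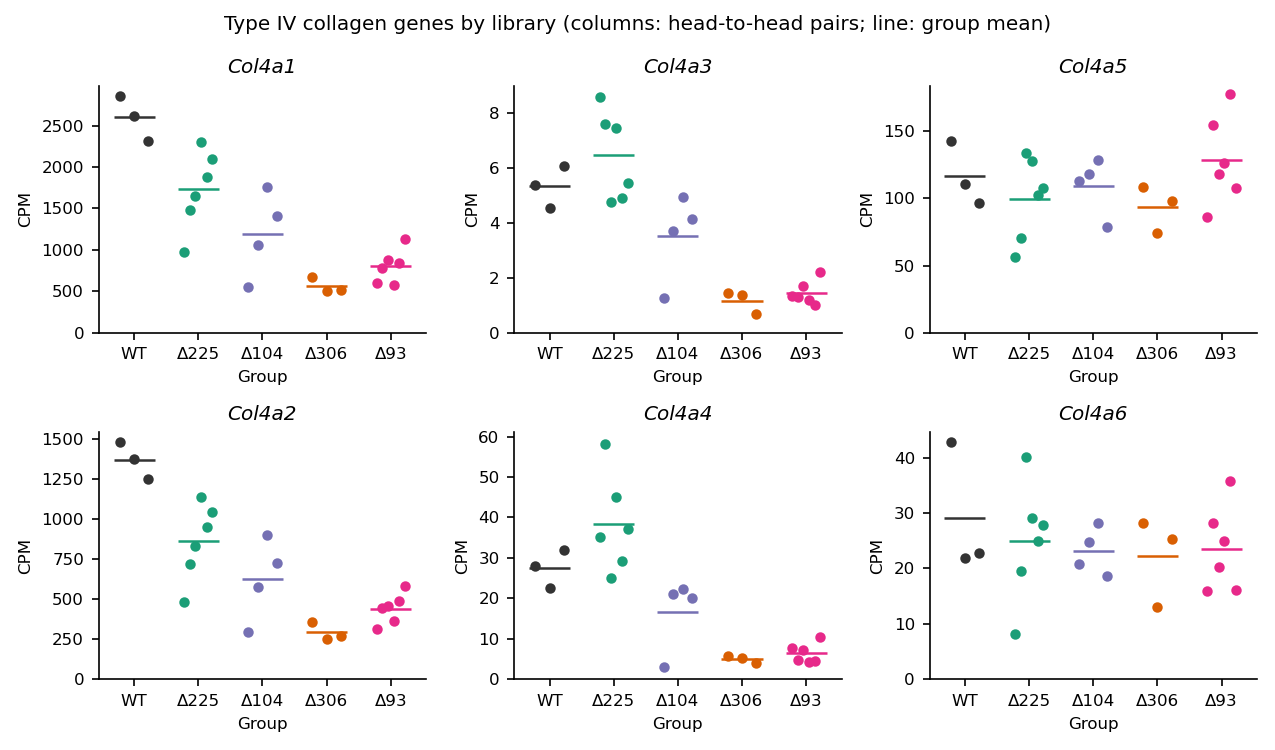
CPM of the 6 type IV collagen genes (vertical axes from 0) in each library of WT and the 4 Fgf9 deletions, with each head-to-head pair in one column of panels and lines at group means. In the Col4a1, Col4a2, Col4a3 and Col4a4 panels all Δ306 and Δ93 points lie below the WT points, and in the Col4a5 and Col4a6 panels the groups overlap.

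In whole gonads a lower level can come from fewer cells of a type or from less RNA per cell, and these cannot be told apart here. Markers of cells of the gonad were read from the same fit. The shares of all genes called, to set beside the marker counts, were 3.46% lower and 2.96% higher in Δ306. In Δ93 they were 6.84% lower and 7.23% higher. Of 16 Sertoli cell markers, 3 were called lower and 1 higher in Δ306, and 7 lower and 1 higher in Δ93. The list holds Fgf9, the mutated gene itself, which is 1 of the lower calls in each. Their summed level was 2382 to 2864 CPM in WT, 224 to 778 in Δ306, 231 to 1257 in Δ93, 143 to 2486 in Δ104 and 1071 to 2687 in Δ225. Of 10 endothelial markers, 1 was called lower in Δ306 and 3 in Δ93, with sums of 570.3 to 828 CPM in WT, 358 to 545 in Δ306 and 397 to 533 in Δ93. Of 6 peritubular myoid and smooth muscle markers only Acta2 was called lower, in both. Their sums were 201 to 259.5 CPM in WT, 72.2 to 104.05 in Δ306 and 84.4 to 169 in Δ93. Of 7 fetal Leydig cell markers, 4 were called lower in Δ306 and 6 in Δ93, and none higher. Their sums were 903 to 1558 CPM in WT, 39.8 to 91.3 in Δ306 and 50.1 to 315 in Δ93. Of 12 pre-granulosa markers, which mark the supporting cells of the ovary, 8 were called higher in Δ306, and 11 higher and 1 lower in Δ93, with sums of 442 to 559 CPM in WT, 814 to 1226 in Δ306 and 859 to 1715 in Δ93. Without the low-Y libraries, the markers called in Δ306 were 1 pre-granulosa gene, higher, and none of the other lists given here. In Δ93 they were 4 Sertoli genes lower and 1 higher, 3 endothelial genes lower, 1 peritubular gene lower, 2 fetal Leydig genes lower, and 9 pre-granulosa genes higher and 1 lower. Of all genes without those libraries, 0.251% were lower and 0.19% higher in Δ306, and 3.81% lower and 2.81% higher in Δ93. No marker of these lists was at 0 in all libraries. Their part in the matrix results was not tested.

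The laminins changed in part. The leading chains per kb of exon in WT were Lama1 among the α chains (19.0 CPM per kb), Lamb1 among the β chains (55.2) and Lamc1 among the γ chains (41.7), which together form laminin-111, the laminin of early embryonic basement membranes. Lama1 was at 223, 196 and 132 CPM in WT, 109.5, 126 and 149 in Δ306 and 144 to 256 (median 192) in Δ93, with overlap. It was not called in Δ306 (log2 fold change −0.51, SE 0.29, adjusted p = 0.305) or Δ93 (log2 fold change 0.10, SE 0.25, adjusted p = 0.832). Lamc1 was at 394, 342 and 299.5 CPM in WT, 333, 247 and 276 in Δ306 and 221 to 379 (median 358) in Δ93. It was not called either (log2 fold change −0.27, SE 0.21, adjusted p = 0.482 in Δ306, log2 fold change −0.04, SE 0.18, adjusted p = 0.917 in Δ93). Lamb1 was at 611, 536 and 496 CPM in WT and lower in every library of Δ306, at 302, 253 and 285, and of Δ93, at 326 to 446 (median 414). Its fall was 1.96-fold in Δ306 (log2 fold change −0.97, SE 0.17, adjusted p = 0.00395) and it was called in Δ93 too (log2 fold change −0.47, SE 0.14, adjusted p = 0.0287). The Δ93 call of Lamb1 was lost without any of the 3 WT libraries or without Δ93 replicates 1, 3 or 4. That call was lost under 9 of 16 alternatives in all, with adjusted p at most 0.173.

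Lamc3 encodes the γ3 chain, a less common subunit. It gave the largest laminin change: 42.5, 31.5 and 32.5 CPM in WT, 8.64, 6.66 and 4.42 in Δ306 and 7.83 to 17.0 (median 9.92) in Δ93, with no overlap. It was 5.40-fold lower in Δ306 (log2 fold change −2.43, SE 0.54, adjusted p = 0.0122) and 3.36-fold lower in Δ93 (log2 fold change −1.75, SE 0.42, adjusted p = 0.00935). The Δ306 call was lost without replicate 2 or 3 (adjusted p at most 0.0953), and the Δ93 call without WT replicate 1 or the low-Y libraries (at most 0.0543). As a share of γ-chain CPM per kb, Lamc3 was 11.1 to 12.8% in WT, 2.13 to 3.54% in Δ306 and 2.90 to 5.75% in Δ93, while in Δ225 it was 4.66 to 17.5%. Lamc3 shares 382 exonic bases with the antisense gene Gm13441.

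Among the other α chains, Lama3, part of laminin-332 of skin, was at 14.3, 13.0 and 14.7 CPM in WT and 5.18, 6.01 and 5.51 in Δ306 (log2 fold change −1.33, SE 0.29, adjusted p = 0.011). In Δ93 it was at 5.51 to 10.9 (median 7.82) (log2 fold change −0.79, SE 0.24, adjusted p = 0.0302). The Δ306 call was lost without replicate 3 (adjusted p at most 0.0721), and the Δ93 call without any WT library or Δ93 replicates 1, 3, 4 or 6 (at most 0.105). Lama2, the α chain of muscle laminin, was at 55.7, 24.1 and 24.0 CPM in WT and 8.35 to 16.4 (median 13.1) in Δ93, where it was called (log2 fold change −1.46, SE 0.32, adjusted p = 0.00583) but not without WT replicate 1 (adjusted p at most 0.1). In Δ306 it was at 23.7, 9.13 and 10.7 (log2 fold change −1.26, adjusted p = 0.0606). Lama4, the α chain of vessel walls and stroma, was at 188, 156 and 139 CPM in WT and 44.8 to 126 (median 74.1) in Δ93 (log2 fold change −1.01, SE 0.32, adjusted p = 0.0418). Its call did not hold without any WT library or without Δ93 replicates 1, 2, 4 or 5. That call was lost under 9 of 16 alternatives in all (adjusted p at most 0.158). Lama5, Lamb2 and Lamb3 were not called in Δ306 or Δ93. Lamb2 was at 137, 89.5 and 83.0 CPM in WT and 74.8 to 175 (median 129) in Δ93, and its share of β-chain CPM per kb was 21.4 to 26.7% in WT, 33.4 to 36.4% in Δ306 and 27.2 to 45.7% in Δ93. Lamb3, part of laminin-332, was at or below 2.52 CPM in all 22 libraries.

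Nidogen-1 (Nid1), which bridges laminin and type IV collagen, was at 622, 509.9 and 461 CPM in WT. It was at 239, 125 and 163 in Δ306 and 171 to 249.5 (median 211) in Δ93, below every WT library. It was 3.02-fold lower in Δ306 (log2 fold change −1.59, SE 0.27, adjusted p = 0.00395) and 2.52-fold lower in Δ93 (log2 fold change −1.33, SE 0.22, adjusted p = 0.00102), and both calls held without any single library. Nid2, the second nidogen, was at 227, 207 and 239 CPM in WT, 169, 137 and 178 in Δ306 and 117 to 219.8 (median 198) in Δ93, and was not called (log2 fold change −0.48 and −0.25). Nid2 made up 32.8 to 41.0% of the summed nidogen CPM per kb in WT, 48.6 to 59.5% in Δ306 and 46.8 to 60.7% in Δ93. Nid2 shares 437 exonic bases with the antisense gene Rtraf, and Nid1 shares 143 with Gm48682.

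**Figure D3:**
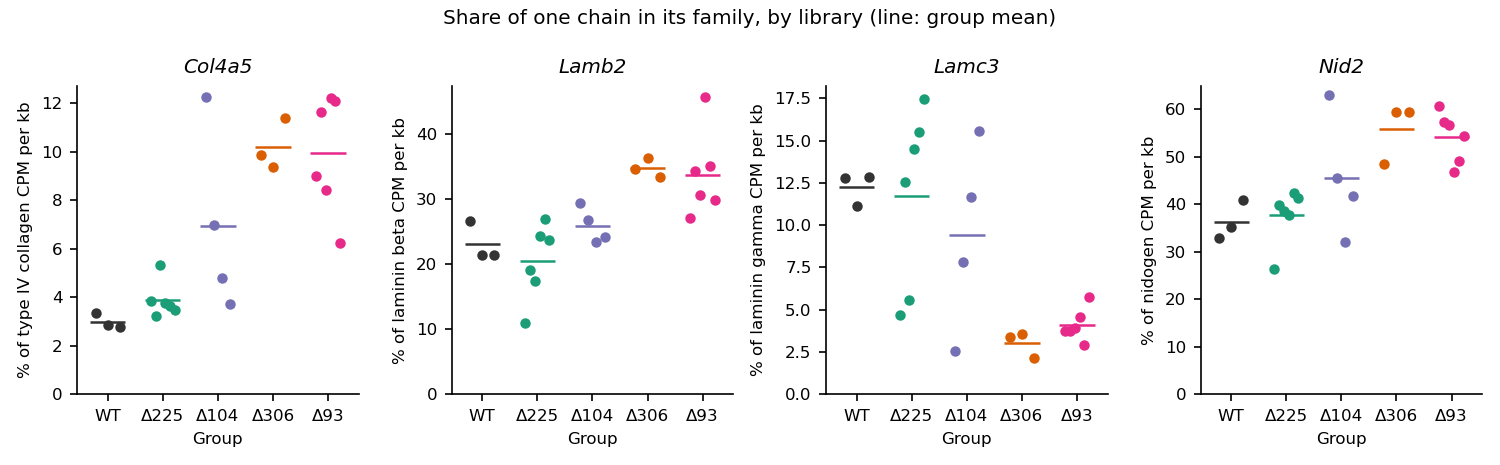
Percent of the summed CPM per kb of its family (vertical axes from 0) held by Col4a5, Lamb2, Lamc3 and Nid2 in each library of WT and the 4 deletions, with lines at group means. The Col4a5, Lamb2 and Nid2 points of Δ306 and Δ93 lie above all WT points, and the Lamc3 points lie below them.

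Of the matrix proteoglycans, perlecan (Hspg2) was at 857, 665 and 375 CPM in WT, a wide range, and 428, 254 and 299 in Δ306. It was at 266 to 492 (median 445) in Δ93 and was not called in either (log2 fold change −0.95, SE 0.38, adjusted p = 0.134 in Δ306, log2 fold change −0.58, SE 0.32, adjusted p = 0.243 in Δ93). Agrin (Agrn), which binds laminin and dystroglycan, was at 491, 360.3 and 351 CPM in WT and 319.8, 261 and 269.7 in Δ306. Its log2 fold changes were −0.50 in Δ306 and −0.39 in Δ93, neither called. The multiplexins, collagens of the outer face of basement membranes, were lower. Col15a1 was at 177, 159 and 149.9 CPM in WT, 59.7, 29.5 and 32.4 in Δ306 and 32.4 to 63.8 (median 43.4) in Δ93. It fell in Δ306 (log2 fold change −2.002, SE 0.35, adjusted p = 0.00444) and Δ93 (log2 fold change −1.88, SE 0.28, adjusted p = 0.000645), and in Δ306 the call was lost only without the low-Y libraries (adjusted p = 0.0602). Col18a1, the precursor of endostatin and the third most abundant of the 38 per kb in WT, was at 1733, 1884 and 1542 CPM in WT, 735, 618 and 416 in Δ306 and 395 to 1137 (median 518) in Δ93. It was called in Δ306 (log2 fold change −1.54, SE 0.46, adjusted p = 0.0488), a call lost without any single WT or Δ306 library. That call was lost under 10 of 14 alternatives in all (adjusted p at most 0.198). Col18a1 was called in Δ93 as well (log2 fold change −1.42, SE 0.38, adjusted p = 0.0158), but not without WT replicate 1 or 2 or the low-Y libraries (at most 0.0726).

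Type IX collagen, best known from cartilage and also made by fetal Sertoli cells, varied widely within the deletion groups. Col9a3 (chromosome 2, 180597790 to 180622189, plus strand) was at 518, 519 and 439 CPM in WT and at 99.0, 126 and 11.5 in Δ306. In Δ93 its 6 libraries were at 66.8, 6.45, 126, 6.21, 6.14 and 211 CPM, in Δ104 the 4 were at 2.92, 85.0, 193 and 388, and in Δ225 the 6 were at 46.8, 124, 185, 302, 328 and 259. Every one of these 19 deletion libraries lay below the lowest WT library. The log2 fold change of Col9a3 was −2.64 (SE 1.32, adjusted p = 0.246) in Δ306 and −2.80 (SE 1.04, adjusted p = 0.0753) in Δ93, and it was not called in any deletion. Its SE exceeded 1 log2 unit in each of them. Col9a2 (chromosome 4, 121039385 to 121055322, plus strand) varied less. It was at 306, 347 and 318 CPM in WT, 109.7, 105 and 43.2 in Δ306 and 52.8 to 137 (median 70.1) in Δ93. It was called in Δ93 (log2 fold change −1.98, SE 0.47, adjusted p = 0.00795) and fell just short in Δ306 (log2 fold change −1.92, SE 0.58, adjusted p = 0.0514).

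Col9a1 (chromosome 1, 24177610 to 24252684, plus strand), the least abundant of the 3 per kb, was at 19.8, 28.1 and 24.6 CPM in WT. In Δ306 it was at 33.5, 24.4 and 3.04, with replicates 1 and 2 in or above the WT range and replicate 3 below it. In Δ93 the 6 libraries were at 17.3, 1.54, 22.3, 0.451, 1.604 and 26.5, and replicates 2, 4 and 5 were the lowest of all 22 libraries. In Δ104 they were at 2.39, 10.5, 12.8 and 14.1 and in Δ225 at 5.76, 5.03, 18.3, 9.71, 9.21 and 6.18, where every library was below WT. The gene was not called in Δ306 (log2 fold change −0.25, SE 1.02, adjusted p = 0.92), Δ93 (log2 fold change −1.06, SE 0.86, adjusted p = 0.451), Δ225 (log2 fold change −1.42, adjusted p = 0.399) or Δ104 (−1.28, adjusted p = 0.5). Amh, the Sertoli cell hormone that removes the Müllerian ducts, was at 58.5, 1.71, 102, 2.49, 1.18 and 384 CPM in the 6 Δ93 libraries, 151, 154 and 4.95 in Δ306 and 0.361, 155, 489 and 1166 in Δ104, against 1685, 1263 and 1397 in WT. Sox9, the transcription factor of Sertoli cell identity, was at 43.9, 9.69, 46.1, 11.2, 11.1 and 74.1 in Δ93, 64.0, 50.5 and 11.2 in Δ306 and 11.6, 57.8, 116 and 88.9 in Δ104, against 98.7, 101 and 104.3 in WT. In Δ306, Δ93 and Δ104 the libraries with the lowest Col9a1 and Col9a3 were also those with the lowest Amh. Of these, Δ306 replicate 3 and Δ93 replicates 4 and 5 were low-Y libraries, and Δ93 replicate 2 and Δ104 replicate 1 were not. The other low-Y library, Δ225 replicate 4, had Amh at 1352 CPM. In Δ225, Amh was at 58.7, 405, 311, 1352, 1440.4 and 1110.1 CPM and Sox9 at 128, 75.7, 92.5, 116, 92.9 and 76.4 in replicates 1 to 6. Replicate 1 had the lowest Amh and Col9a3 there, but Col9a1 was lowest in replicate 2 and highest in replicate 3, and it was below WT in replicates 4 and 5, where Amh was within the WT range. Whether the Sertoli cell difference accounts for the type IX collagen levels was not tested.

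**Figure D4:**
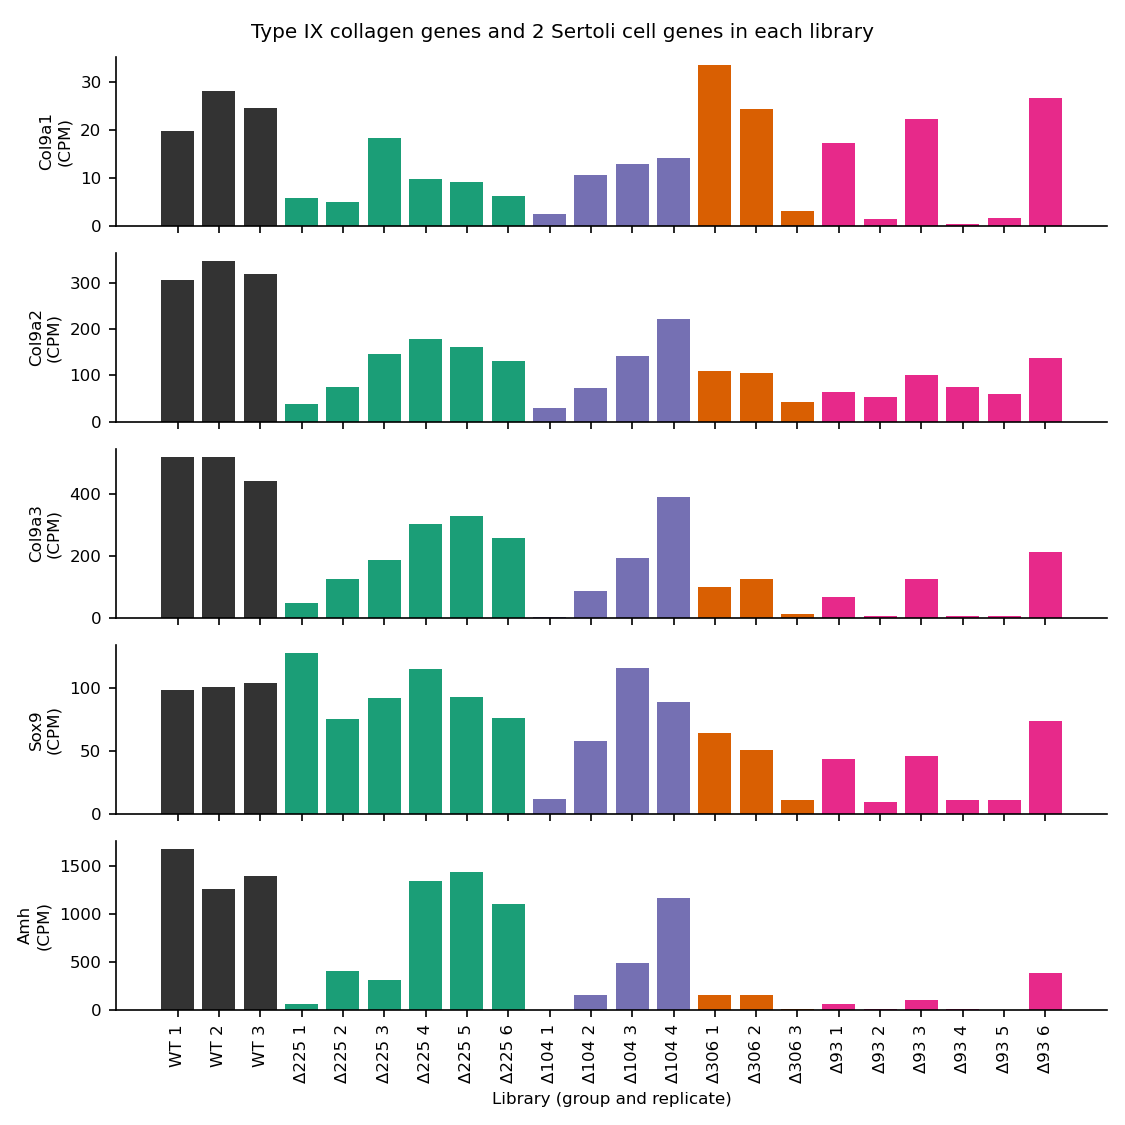
Bars give the CPM of Col9a1, Col9a2, Col9a3, Sox9 and Amh (vertical axes from 0) in each of the 22 libraries of WT and the 4 deletions, labelled by group and replicate. Col9a3 and Amh are both lowest in Δ104 replicate 1, Δ306 replicate 3 and Δ93 replicates 2, 4 and 5 within their groups. Δ306 replicate 3 and Δ93 replicates 4 and 5 are low-Y libraries, as is Δ225 replicate 4.

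Sparc, which binds collagen and helps it reach the membrane, was the most abundant of the 38 genes per kb in WT (577 CPM per kb). It was at 2209, 2218 and 2135 CPM in WT, 1134, 767 and 747 in Δ306 and 696 to 1145 (median 903) in Δ93, and fell in Δ306 (log2 fold change −1.31, SE 0.28, adjusted p = 0.011) and Δ93 (log2 fold change −1.25, SE 0.23, adjusted p = 0.0019). The Δ306 call was lost without replicate 2 or 3 (adjusted p at most 0.0882). Fibronectin (Fn1) was at 835, 620.4 and 584 CPM in WT, 547, 242 and 314 in Δ306 and 244 to 442 (median 350.4) in Δ93. It was called in Δ93 (log2 fold change −0.95, SE 0.23, adjusted p = 0.00885), though not without WT replicate 1 or the low-Y libraries (at most 0.0701), and not in Δ306 (log2 fold change −0.89, adjusted p = 0.0538). Egflam (pikachurin), a dystroglycan ligand, was at 134, 100.5 and 125 CPM in WT, 41.6, 23.8 and 28.8 in Δ306 and 23.9 to 47.5 (median 37.3) in Δ93. It was 3.82-fold lower in Δ306 (log2 fold change −1.93, SE 0.38, adjusted p = 0.00737), a call lost without replicate 3 (at most 0.0693), and 3.19-fold lower in Δ93 (log2 fold change −1.67, SE 0.31, adjusted p = 0.00184).

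The Fraser complex anchors epithelium to the tissue below it, and 1 of its 3 members was called against WT. Frem1 was at 226, 126 and 129 CPM in WT, 64.4, 42.7 and 70.3 in Δ306 and 58.2 to 82.4 (median 67.4) in Δ93. It was called lower in Δ306 (log2 fold change −1.44, SE 0.28, adjusted p = 0.00658) and Δ93 (log2 fold change −1.19, SE 0.23, adjusted p = 0.00222), without loss of either call when any single library was left out. Fras1 and Frem2 were not called against WT in any deletion. Frem2 was at 111, 41.1 and 46.2 CPM in WT, 132, 71.6 and 106 in Δ306 and 92.7 to 170.0 (median 126) in Δ93, with log2 fold changes above 0 (0.64 and 0.92). Nephronectin (Npnt), the ligand of integrin α8β1, was at 24.7, 11.1 and 26.1 CPM in WT, 58.4, 61.2 and 84.9 in Δ306 and 50.4 to 91.1 (median 73.0) in Δ93. No WT library reached the lowest library of those 2 groups, but the gene was not called (log2 fold change 1.72, SE 0.74, adjusted p = 0.169 in Δ306, log2 fold change 1.83, SE 0.68, adjusted p = 0.0765 in Δ93). In Δ225 replicate 3, the library with the highest Cdh16, Npnt was at 104.2 CPM, against 12.1 to 17.4 in the other 5. Cdh16 was 8.78, 1.22 and 8.51 CPM in Δ306 and 0.754 to 9.84 (median 1.36) in Δ93, and its part in the Npnt values was not tested.

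Of the receptors, integrin α6 (Itga6), which with β1 binds laminin, was the only member called higher. It was at 340.5, 299.8 and 268 CPM in WT and 373 to 593 (median 515) in Δ93, with no overlap (log2 fold change 0.75, SE 0.20, adjusted p = 0.0163). It no longer passed when WT replicate 2, WT replicate 3 or the low-Y libraries were left out (adjusted p at most 0.106). In Δ306 Itga6 was at 360.0, 353 and 393 and was not called (log2 fold change 0.28). Dag1, the dystroglycan gene, was at 555, 601 and 583 CPM in WT and 379, 321 and 333 in Δ306, where it was called lower (log2 fold change −0.75, SE 0.17, adjusted p = 0.0147). Leaving out WT replicate 2, Δ306 replicate 2 or Δ306 replicate 3 ended that call (at most 0.0775). In Δ93 Dag1 was at 305 to 531 (median 452) (log2 fold change −0.36, adjusted p = 0.102). Itgb1, the shared β1 subunit, was at 580.2, 574 and 571 CPM in WT, 474, 363 and 395 in Δ306 and 387 to 472 (median 455) in Δ93, with log2 fold changes of −0.49 and −0.39 and no call. Itga1, Itga8 and Itgb4 were not called against WT in any deletion. Itgb4, the partner of Itga6 in hemidesmosomes, was at or below 5.36 CPM in all 22 libraries.

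Col4a1 in Δ225 was at 970.0 to 2305 (median 1766) CPM, below every WT library, with a log2 fold change of −0.59 (adjusted p = 0.313). Col18a1 (329 to 1244 (median 969) CPM) and Col9a2 (37.8 to 178 (median 138) CPM) also lay below every WT library there, with log2 fold changes of −0.99 and −1.41. The lowest Δ225 value of Col4a1, Col18a1 and Col9a2 was in each case that of replicate 1, the smallest library. In Δ104, Col4a1 was at 545, 1060.3, 1764 and 1409 CPM and Col4a2 at 294, 572, 897 and 726, all below WT. Their log2 fold changes were −1.12 (adjusted p = 0.121) and −1.13 (adjusted p = 0.104). DESeq2 called both (adjusted p = 0.0236 and 0.0153). Lamc1 was at 385, 413, 406 and 228 in Δ104 and Nid1 at 192, 320.4, 498 and 308, both overlapping WT. Replicate 1 of Δ104 was the lowest of its group for Col4a1, Col4a2, Nid1, Col15a1, Sparc, Egflam and the 3 type IX genes, and was at 0.36 CPM for Amh.

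The deletions were also set against each other, which asks whether the alleles differ, a question the comparisons with WT do not answer. Between Δ225 and Δ93, 16 of 38 members were higher in Δ225 and 1, Itga6, was lower. Over all genes 9.96% were higher and 10.8% lower. Between Δ225 and Δ306, 17 were higher in Δ225 and none lower, against 6.47% and 6.74% of all genes. Without the low-Y libraries the counts were 11 higher and 1 lower against Δ93, against 4.81% and 4.26% of all genes, and 9 higher against Δ306, against 0.998%. Between Δ225 and Δ104 none was called in either direction, against 0.0262% higher and 0.619% lower over all genes, and none was called without the low-Y libraries. There 10 members (26.3%) and 10.6% of all genes passed an unadjusted p of 0.05. DESeq2 called 1 member, Lama2, and no share of all genes it called is given. The Δ225 libraries enter all 3 of these comparisons.

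Among the called members Col4a4 had the largest fold change against both deletions. It was at 25.0 to 58.2 (median 36.1) CPM in Δ225, a level of 2.57 log2 units above Δ93 (SE 0.35, adjusted p = 7.74e-05) and 2.94 above Δ306 (SE 0.48, adjusted p = 0.000789). Lama2 was at 45.1 to 78.7 (median 60.8) CPM in Δ225, higher than in Δ93 (log2 fold change 2.24, SE 0.29, adjusted p = 4.08e-05) and Δ306 (log2 fold change 2.04, SE 0.37, adjusted p = 0.00168), with no overlap. Col4a3 was at 4.74 to 8.59 (median 6.45) CPM in Δ225, higher than in Δ93 (log2 fold change 2.14, SE 0.30, adjusted p = 8.08e-05) and Δ306 (log2 fold change 2.47, SE 0.40, adjusted p = 0.000757), with no overlap. Col15a1 was at 119 to 169 (median 146) CPM in Δ225, higher than in Δ93 (log2 fold change 1.73, SE 0.25, adjusted p = 9.29e-05) and Δ306 (log2 fold change 1.85, SE 0.32, adjusted p = 0.00124), also with no overlap. Col4a1 was 2.16-fold higher in Δ225 than in Δ93 (log2 fold change 1.11, SE 0.24, adjusted p = 0.00248), with overlap, and 3.08-fold higher than in Δ306 (log2 fold change 1.62, SE 0.31, adjusted p = 0.00246). Col4a2 was at 479.5 to 1137 (median 891) CPM in Δ225, higher than in Δ93 (log2 fold change 0.97, SE 0.23, adjusted p = 0.00491) and Δ306 (log2 fold change 1.56, SE 0.30, adjusted p = 0.00239), overlapping Δ93 only. The overlap of Col4a1 and Col4a2 with Δ93 came from Δ225 replicate 1 alone (970 and 479.5 CPM). That was the smallest library and the one with the highest mt-Nd5. Without the low-Y libraries the adjusted p against Δ306 was 0.0511 for Col4a1 and 0.0548 for Col4a2, and that of Col4a2 against Δ93 was 0.0585.

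Lamc3 was at 10.2 to 49.0 (median 38.4) CPM in Δ225, higher than in Δ93 (log2 fold change 1.67, SE 0.37, adjusted p = 0.00309) and Δ306 (log2 fold change 2.35, SE 0.50, adjusted p = 0.00475), overlapping Δ93 only. Without the low-Y libraries its adjusted p was 0.0579 and 0.0836. Lama3 was at 9.92 to 27.4 (median 16.2) CPM in Δ225, higher than in Δ93 (log2 fold change 1.05, SE 0.20, adjusted p = 0.000997) and Δ306 (log2 fold change 1.59, SE 0.26, adjusted p = 0.000878), again overlapping Δ93 only. Nid1 was higher in Δ225 than in Δ93 (log2 fold change 1.09, SE 0.19, adjusted p = 0.000417) and Δ306 (log2 fold change 1.35, SE 0.24, adjusted p = 0.00151). Egflam was at 75.1 to 137 (median 116) CPM in Δ225, higher than in Δ93 (log2 fold change 1.56, SE 0.27, adjusted p = 0.000431) and Δ306 (log2 fold change 1.82, SE 0.35, adjusted p = 0.00254), with no overlap, a call against Δ306 lost without the low-Y libraries (adjusted p = 0.0544). Frem1 was at 102 to 182 (median 157) CPM in Δ225, higher than in Δ93 (log2 fold change 1.12, SE 0.19, adjusted p = 0.000436) and Δ306 (log2 fold change 1.37, SE 0.25, adjusted p = 0.00169), with no overlap. Fn1 was at 648 to 944 (median 723) CPM in Δ225, higher than in Δ93 (log2 fold change 1.12, SE 0.19, adjusted p = 0.000436) and Δ306 (log2 fold change 1.06, SE 0.25, adjusted p = 0.00816), with no overlap, and the call against Δ306 was lost without Δ306 replicate 2 or 3 or the low-Y libraries (at most 0.0866). Itga1, the collagen-binding α1 integrin, not called against WT in any deletion, was at 15.5 to 46.9 (median 21.1) CPM in Δ225, 10.1 to 13.6 (median 11.7) in Δ93 (log2 fold change 1.1, SE 0.26, adjusted p = 0.00432) and 15.2, 6.51 and 8.58 in Δ306 (log2 fold change 1.31, SE 0.33, adjusted p = 0.0128). The call against Δ306 was lost under 4 alternatives (at most 0.111). Itga1 shares 685 exonic bases with Gm49395 on the same strand.

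The other called members had smaller fold changes. Against Δ93, Sparc (0.82), Itgb1 (0.41) and Fras1 (0.96) were higher in Δ225 by these log2 fold changes, 3 calls that were lost without the low-Y libraries (adjusted p at most 0.0596, 0.098 and 0.0767 over the alternatives). The call of Itgb1 was lost under 4 of 19 alternatives in all. Fras1 was at 88.6 to 175 (median 121) CPM in Δ225 and 51.0 to 85.5 (median 62.6) in Δ93, with no overlap. Itga6 was lower in Δ225, at 291 to 343 (median 307) CPM (log2 fold change −0.70, SE 0.16, adjusted p = 0.00366). Against Δ306, Lamb1 (0.80), Sparc (0.88), Dag1 (0.67) and Itgb1 (0.50) were higher. The calls of Sparc, Dag1 and Itgb1 were lost without Δ306 replicate 2 or 3. In all they were lost under 4, 2 and 7 of 16 alternatives (adjusted p at most 0.218, 0.0534 and 0.172 over the alternatives). Lama1, Lamc1 and Hspg2 were not called between Δ225 and either deletion, with log2 fold changes of −0.31, −0.01 and 0.24 against Δ93 and 0.31, 0.22 and 0.62 against Δ306. The type IX genes were not called either. The summed fetal Leydig cell markers (7 genes) were 453 to 3073 CPM in Δ225, 50.1 to 315 in Δ93, 39.8 to 91.3 in Δ306 and 903 to 1558 in WT, and their part in these differences was not tested.

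In Meis1 KO gonads 2 type IX collagen genes, Nid2 and Frem1 were called lower, and no type IV collagen or laminin gene was called. Col9a3 was at 558, 560.5 and 468 CPM in WT and 377, 348, 373 and 399 in Meis1 KO (log2 fold change −0.50, SE 0.09, adjusted p = 0.0425). Col9a2 was at 329, 374 and 337 in WT and 250.1, 240.2, 252 and 263 in Meis1 KO (log2 fold change −0.46, SE 0.07, adjusted p = 0.034). Nid2 was at 249, 226 and 260.2 in WT and 184, 144, 179 and 166 in Meis1 KO (log2 fold change −0.54, SE 0.10, adjusted p = 0.0429). Frem1 was at 242, 134 and 137 in WT and 96.1, 82.5, 74.1 and 73.8 in Meis1 KO (log2 fold change −1.07, SE 0.21, adjusted p = 0.0484). For these 4 genes every Meis1 KO library lay below every WT library. Col9a1 was at 21.2, 30.3 and 26.0 in WT and 17.6, 19.2, 22.2 and 23.7 in Meis1 KO and was not called (log2 fold change −0.32, SE 0.15, adjusted p = 0.282). Col4a1, at 3065, 2813 and 2448 in WT and 2962, 2384, 2611 and 2649 in Meis1 KO, gave log2 fold change −0.07, SE 0.11, adjusted p = 0.812. Col4a2 gave log2 fold change −0.15, SE 0.11, adjusted p = 0.518, Lama1 log2 fold change −0.08, SE 0.17, adjusted p = 0.858, Lamc1 log2 fold change −0.07, SE 0.12, adjusted p = 0.81, Nid1 log2 fold change −0.09, SE 0.14, adjusted p = 0.787 and Hspg2 log2 fold change −0.31, SE 0.25, adjusted p = 0.543.

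These 4 calls rested on the full set of 7 libraries. Left out one at a time, Meis1 KO replicates 1, 2, 3 and 4 and WT replicates 2 and 3 each left no member called, while 9 were called without WT replicate 1. DESeq2 called 9, all lower. No share of all genes called is given for these fits, so whether the change in count is particular to the members was not tested. The highest adjusted p over the alternatives was 0.138 for Col9a2, 0.148 for Col9a3, 0.129 for Nid2 and 0.15 for Frem1. Of 16 Sertoli markers 2 were called lower in Meis1 KO, against 0.53% of all genes. The sums of the 16 were 1887 to 2431 CPM in Meis1 KO and 2582 to 3102 in WT. Of 12 pre-granulosa markers 1, Foxl2, was called higher (log2 fold change 2.90, adjusted p = 0.000753), against 1.27% of all genes. Their sums overlapped, at 570 to 621 in Meis1 KO and 483 to 614 in WT. Of 8 coelomic epithelium markers 1, Gpm6a, was called higher, and their sums did not overlap (396 to 468 and 304 to 346). The part of these lists in the matrix calls was not tested. Amh was at 1292, 915, 1187 and 1126 in Meis1 KO and 1806, 1357 and 1478 in WT, and its part in the type IX values was not tested.

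**Figure D5:**
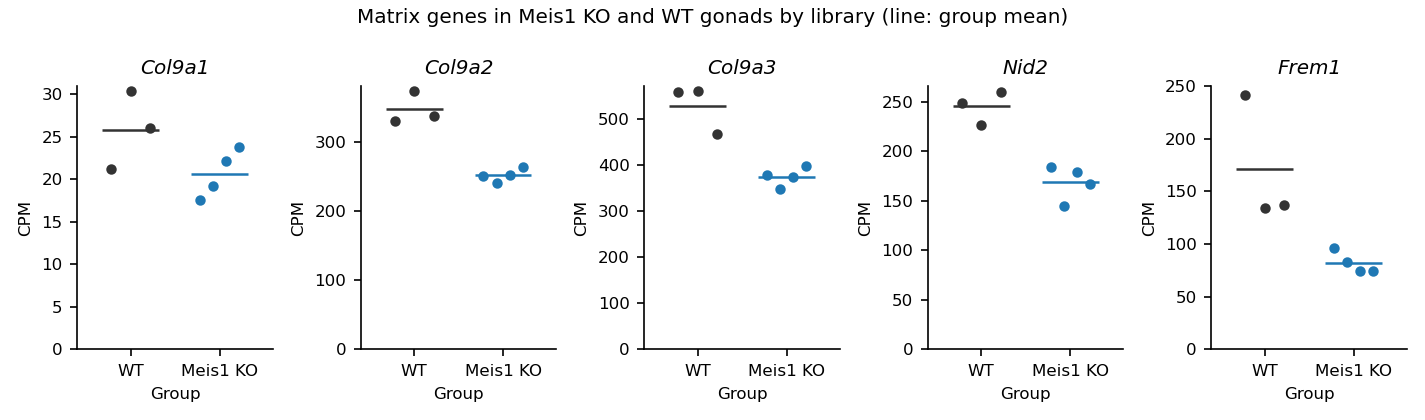
CPM (vertical axes from 0) of Col9a1, Col9a2, Col9a3, Nid2 and Frem1 in the 3 WT and 4 Meis1 KO libraries, with lines at group means. In the Col9a2, Col9a3, Nid2 and Frem1 panels all Meis1 KO points lie below all WT points, and in the Col9a1 panel they overlap.

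Other genes of matrix biology, in 5 lists, were read from the same fits. The shares of all genes called, to set beside the list counts, were 3.46% lower and 2.96% higher in Δ306. In Δ93 they were 6.84% lower and 7.23% higher. Of 29 further basement membrane components tested, 2 were lower and 1 higher in Δ306, and 6 lower and 1 higher in Δ93. Tinagl1, a laminin-binding matrix protein, was lower in both (log2 fold change −2.32, adjusted p = 0.0141 in Δ306, log2 fold change −2.43, adjusted p = 0.00121 in Δ93). Pxdn, the peroxidase that crosslinks type IV collagen, was lower in Δ306 (log2 fold change −0.93, adjusted p = 0.0243). Hmcn2 was higher in both (log2 fold change 1.99, adjusted p = 0.0338 in Δ306, log2 fold change 2.13, adjusted p = 0.00839 in Δ93). Of 28 further matrix receptors, 5 were lower and none higher in Δ306, and 10 lower and 1 higher in Δ93. Itga9, the α9 integrin, was lower in both (log2 fold change −2.08, adjusted p = 0.00419 in Δ306, log2 fold change −1.91, adjusted p = 0.000648 in Δ93), and the hyaluronan receptor Cd44 was higher in Δ93 (log2 fold change 2.83, adjusted p = 0.00572).

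Of 30 enzymes that process collagen and laminin, 4 were lower in Δ306 and 10 in Δ93, and none was higher. Loxl2, a lysyl oxidase that crosslinks type IV collagen, was lower in both (log2 fold change −1.41, adjusted p = 0.00588 in Δ306, log2 fold change −1.35, adjusted p = 0.000834 in Δ93). Of 27 matrix proteases and inhibitors, 3 were lower and 1 higher in Δ306, and 8 lower and 1 higher in Δ93. The higher one was the protease Adamts19 in both (log2 fold change 2.45, adjusted p = 0.00721 in Δ306, log2 fold change 2.91, adjusted p = 0.000905 in Δ93), and the type IV collagenase Mmp2 was lower in Δ306 (log2 fold change −1.85, adjusted p = 0.00694). Of 28 interstitial matrix genes, 8 were lower and none higher in Δ306, and 12 lower and 2 higher in Δ93. Col14a1, a fibril-associated collagen, was lower in both (log2 fold change −2.18, adjusted p = 0.0216 in Δ306, log2 fold change −2.56, adjusted p = 0.0011 in Δ93). The median log2 fold changes of the interstitial list were −0.95 in Δ306 and −0.81 in Δ93, beside −0.74 and −0.65 for the 38 members. Without the low-Y libraries, 1 gene of the 5 lists was called in Δ306, lower, and in Δ93 30 were lower and 3 higher, against 22 lower and 2 higher in Δ306 and 46 lower and 5 higher in Δ93 with all libraries. Of all genes without those libraries, 0.251% were lower and 0.19% higher in Δ306, and 3.81% lower and 2.81% higher in Δ93. No gene of the 5 lists was called in Δ225 or Δ104 against WT. Among all genes tested in Meis1 KO, 0.53% were called lower and 1.27% higher. In Meis1 KO, 4 were called: Lox higher (log2 fold change 1.01, adjusted p = 0.0153), Timp1 higher (log2 fold change 0.72, adjusted p = 0.0268), Adamts19 lower (log2 fold change −0.99, adjusted p = 0.034) and Serpine2 lower (log2 fold change −0.33, adjusted p = 0.0481).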

How the data were processed

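Counts per gene were deposited by the authors in 3 tables. The submitters' processing notes name STAR (2.7.10a for some samples), featureCounts, Subread and DESeq2 with mm10, with no roles or settings. The extraction protocol names a directional kit, but the strand setting of the counting is not given in the sources used here. WT counts were identical in the first and the Meis1 table. The deletion table was counted anew, and its counts of the 38 genes in the WT libraries were 0.920 to 1.03 times those of the first table.

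From these counts edgeR 4.0.16 (R 4.3.3, limma 3.58.1) was run with filterByExpr, TMM and the quasi-likelihood F-test, adjusted by Benjamini-Hochberg over all genes of a comparison. One fit held all 22 deletion-table libraries (22941 genes, 17 residual degrees of freedom) and another the 7 Meis1-table libraries (16791 genes, 5 residual degrees of freedom). The scripts were tested on simulated data. The SE was derived from the F statistic and the unshrunk log2 fold change. CPM used TMM-scaled totals, and CPM per kb used the union of GENCODE M21 exons. Totals ran from 11.6 M counts and CPM used the scaled totals, so the count behind 1 CPM differed between libraries.

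The rule gave full statistics to at most 10 members called in a comparison, by size of fold change, and to Col4a1, Col4a2, Lama1, Lamc1, Nid1, Hspg2 and the type IX genes. All members called in Δ306 or Δ93 against WT have them. From each other list, at most 3 genes called higher and 3 lower, with a mean of at least 1 CPM, could be named. The members, lists and alternatives were chosen with earlier results of these data known. Alternatives were DESeq2 1.42.0, RLE or no composition factors, no low-count filter, the replicate number as a block, only the 2 groups compared, the first table for Δ306, each library left out, and, added after seeing the data, the 4 libraries under 1 CPM of Y-linked genes left out. All mapped columns of the 3 count tables were used, and the authors' comparison tables served only to pair identifiers with symbols.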

Additional observations from a re-analysis of the deposited data

Results flagged for a closer look

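Within groups of 4 or 6 libraries, a library was picked out where its gap to the nearest other library, divided by the range of the group, passed Dixon's critical value at the 95% level. This happened in 12 of 148 gene-by-group sets (8.11%), where chance picks about 1 in 20. Values are CPM.

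Δ104 replicate 4 was low for 3 laminin genes: Lama1 at 100.5 against 225.5 to 249.6 in the other 3 libraries, Lama5 at 24.4 against 51.8 to 52.8, and Lamc1 at 228 against 385 to 413. Δ104 replicate 1 was low for Col4a4, at 2.94 against 20.0 to 22.3. Δ225 replicate 3 was high for Col9a1, at 18.3 against 5.03 to 9.71, for Itga8, at 136 against 26.1 to 56.0, and for Npnt, at 104.2 against 12.1 to 17.4. The same library had the highest Cdh16 and Fgf9 of its group (26.3 and 16.5). Δ93 replicate 4, one of the 4 libraries under 1 CPM of Y-linked genes, was low for Lamc1, at 221 against 339 to 379, for Hspg2, at 266 against 415 to 492, and for Dag1, at 305 against 449 to 531. Δ93 replicate 6 was high for Lamc3, at 17.0 against 7.83 to 10.8. Meis1 KO replicate 2 was low for Col4a3, at 4.48 against 5.78 to 5.93. What these libraries have in common was not tested.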

How the results depend on the processing

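Each of the 70 calls of member genes was refitted under 12 to 19 alternatives, which gave 1127 pairs of a call and an alternative. Calls of one comparison shared the same refits. Of the pairs, 999 kept the call, 128 lost it with the same sign and 0 turned it, and 35 calls held under every alternative. With 1 library left out at a time, the number of members called was 6 to 15 in Δ306, 0 to 0 in Δ225, 0 to 1 in Δ104, 11 to 18 in Δ93, 0 to 9 in Meis1 KO, 16 to 19 between Δ225 and Δ93, 12 to 18 between Δ225 and Δ306 and 0 to 1 between Δ225 and Δ104. The lowest Δ306 value was without Δ306 replicate 3 and the lowest Δ93 value without WT replicate 1. The 1 call in Δ104 came without Δ104 replicate 4, and that between Δ225 and Δ104 without Δ104 replicate 3 or 4. DESeq2 called 3 members in Δ104, 9 in Meis1 KO and 1 between Δ225 and Δ104. Without the 4 low-Y libraries, 5 were called in Δ306, 11 in Δ93, 12 between Δ225 and Δ93 and 9 between Δ225 and Δ306. The cause of these differences was not tested, beyond the smaller number of libraries where some were left out. Apart from the fits without the low-Y libraries, no share of all genes called is given for the alternatives. Same-numbered libraries did not deviate together throughout (correlations −0.272 to 0.481, and in no comparison above 0.1 in every pair), so the numbers were not taken as pairs. With the replicate block, 14 members were called in Δ306, 2 in Δ225 (Col4a2 and Col9a2), 4 in Δ104 (Col4a1, Col4a2 and Col9a2 among them), 19 in Δ93, 0 in Meis1 KO, 19 between Δ225 and Δ93, 17 between Δ225 and Δ306 and 0 between Δ225 and Δ104.

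Uncalled core genes with small log2 fold changes turned sign under some alternatives. With 1 library left out, Col9a1 ranged from −0.846 to 0.22 in Δ306. Lamc1 ranged from −0.16 to 0.05 in Δ225, −0.075 to 0.217 in Δ104 and −0.142 to 0.082 in Δ93. Lama1 ranged from −0.065 to 0.382 in Δ104 and −0.095 to 0.27 in Δ93. In Meis1 KO the ranges were −0.156 to 0.015 for Col4a1, −0.279 to 0.092 for Lama1, −0.174 to 0.042 for Lamc1 and −0.197 to 0.059 for Nid1. Between Δ225 and Δ93 they were −0.126 to 0.057 for Lamc1 and −0.698 to 0.067 for Col9a1. Between Δ225 and Δ104 they were −0.201 to 0.194 for Hspg2, −0.459 to 0.087 for Col9a1, −0.25 to 0.591 for Col9a2 and −0.097 to 1.153 for Col9a3. With the replicate block, Lamc1 was 0.043 in Δ225, 0.024 in Δ93 and 0.019 between Δ225 and Δ93, Col9a1 was 0.101 between Δ225 and Δ93, and Col9a2 was −0.135 between Δ225 and Δ306. Lamc1 between Δ225 and Δ93 was 0.005 with the 2 groups alone, 0 with DESeq2 and 0.001 with RLE factors. Without the low-Y libraries, Col9a1 was 0.222 in Δ306, Lamc1 0.002 in Δ93, and between Δ225 and Δ104 Hspg2 was −0.061 and Col9a2 −0.045. Hspg2 was −0.024 there with no composition factor.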
